A study of Mus musculus with 2 samples.

Results

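The mitochondrial ribosomal protein genes were taken as every gene of the table whose symbol begins with Mrps (small subunit) or Mrpl (large subunit) followed by a number, which gave 77 of 17408 genes. They were described in mouse embryonic fibroblasts (MEFs) on day 16 of their conversion to induced pluripotent stem cells (iPSCs) by STEMCCA, a transgenic cassette that carries the reprogramming factors. Reprogramming was induced with doxycycline, and the cells were kept in embryonic stem cell medium with LIF, ascorbic acid and doxycycline. Unsorted cells were measured by droplet single-cell 3′ RNA-seq in 2 libraries, which the labels put in 1 group and which are called replicates 1 and 2. The study's text names a pair of independent transgenic STEMCCA mouse systems without saying which library came from which, so that differences between libraries and between systems cannot be told apart. Starting fibroblasts and established iPSCs were not analysed here, so every comparison is between cells of the same culture.

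Replicate 1 held 3109 cells and replicate 2 held 3914 cells, 7023 in all, and 12 cell barcodes occurred in both. The libraries totalled 54145377 and 64654306 unique molecular identifiers (UMIs, which count RNA molecules), with medians of 15625 and 14292 UMIs per cell. Cells were called pluripotent-like when at least 3 of Utf1, Tdgf1, Tdh, Nanog and Dppa4 were above 0, which held for 160 cells of replicate 1 and 397 cells of replicate 2, and the remaining 2949 and 3517 are called other cells. In the pluripotent-like cells the 7 further pluripotency genes Zfp42, Dppa5a, Esrrb, Tet1, Sall4, Dppa2 and Dppa3 summed to 46.3 and 54.2 UMIs per 10000, against 0.256 and 0.536 in other cells, and all 7 were detected. A list of 9 fibroblast genes summed to 2.04 and 2.1 against 32.6 and 20.0, and 7 macrophage genes summed to 0.118 and 0.171 against 0.284 and 0.614. The 5 epithelial markers Epcam, Cdh1, Rab25, Cldn4 and Cldn7 were higher in the pluripotent-like cells, at 2.62 and 2.24 against 0.284 and 0.0533. The keratin genes, which are not among these 5, did not all rise. Krt19 was lower in the pluripotent-like cells, at 0.0648 and 0.0773 against 0.135 and 0.208 UMIs per 10000. Krt18 was lower in replicate 1 and higher in replicate 2, and Krt8 was higher in both.

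Mitochondria keep a small genome that encodes a few core subunits of the respiratory chain and of the ATP synthase, and the mitochondrial ribosome (mitoribosome) exists to translate those messages. Its RNAs come from the mitochondrial genome, whereas all of its proteins are encoded in the nucleus, made in the cytosol and imported. Some of these proteins descend from the bacterial ribosome and others were added in mitochondria. Pluripotent cells divide fast and are known for a strongly glycolytic metabolism with immature mitochondria.

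All 77 genes could be placed on GRCm38 with the GENCODE M21 annotation, on 17 chromosomes, none of them the X. Chromosome 11 carried the most, with 10. A promoter window of 300 bases (250 before the transcription start and 50 from it) was found in RefSeq (GRCm38.p6) for 68 of the 77, and motifs known from promoters of nuclear genes for mitochondria were searched in it on both strands. The ETS-type letters CCGGAAG (bound by GABP and its relatives) were in 24 of the 68 windows (35.3%), against 21.1% of the 5516 windows of all genes tested. The YY1-type letters AAGATGGC were in 12 (17.6%, against 5.64%), the NRF1-type motif (a palindrome of 10 letters) in 3 (4.41%, against 2.30%) and the E-box CACGTG in 5 (7.35%, against 10.9%). Such a match is a description of the letters and not of a bound site. The windows of 3 genes are shown for members whose expression differed below, because all hold the ETS-type letters close to the start, Mrps21 and Mrpl33 having the largest falls in pluripotent-like cells and Mrpl21 being among the largest rises. Each run reads 5′ to 3′ on the strand of the gene, from 170 bases before the start to 30 bases into the transcript, with the ETS-type letters of either strand in capitals. The capitals begin 18 bases after the start in Mrps21 (chr3:95871485-95871684, minus strand), 3 bases before it in Mrpl33 (chr5:31613781-31613980, plus strand) and 7 bases after it in Mrpl21 (chr19:3282872-3283071, plus strand).
Mrps21: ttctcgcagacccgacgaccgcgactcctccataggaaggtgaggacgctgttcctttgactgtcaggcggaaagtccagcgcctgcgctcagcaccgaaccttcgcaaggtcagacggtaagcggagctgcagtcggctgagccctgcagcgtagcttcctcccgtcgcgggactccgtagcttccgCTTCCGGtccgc
Mrpl33: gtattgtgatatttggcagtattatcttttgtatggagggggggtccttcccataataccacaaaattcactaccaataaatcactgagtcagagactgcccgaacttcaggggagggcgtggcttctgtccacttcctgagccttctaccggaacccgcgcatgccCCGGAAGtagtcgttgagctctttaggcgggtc
Mrpl21: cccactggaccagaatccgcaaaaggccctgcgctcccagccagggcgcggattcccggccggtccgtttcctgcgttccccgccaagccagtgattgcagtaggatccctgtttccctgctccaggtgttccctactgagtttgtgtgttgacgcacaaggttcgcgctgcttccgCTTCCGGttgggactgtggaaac

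The question of the first comparison was whether cells that had reached a pluripotent-like state differed from the rest of the culture in the expression of their mitoribosome genes. Summed over the 77 genes, the mean level was 80.3 and 76.2 UMIs per 10000 in the pluripotent-like cells of replicates 1 and 2, and 61.2 and 59.9 in the other cells. Both pluripotent-like values thus lay above both values of the other cells. The middle 50% of cells ranged from 72.1 to 88.0 and from 66.8 to 85.7 in the pluripotent-like class, against 52.4 to 69.3 and 50.9 to 67.8 in other cells. Counted per cell, the genes gave 234 and 204 UMIs against 106 and 95.7, from a median of 63 and 61 members detected against 44 and 41. The pluripotent-like cells were also deeper, with medians of 28354 and 26097 UMIs against 15189 and 13641, and a deeper cell yields more UMIs of every gene.

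The level was also followed along the number of the 5 pluripotency markers detected in a cell. In replicate 1 the summed level was 60.6, 62.3 and 64.6 UMIs per 10000 in cells with 0, 1 and 2 markers, and 67.4, 82.1 and 81.3 in cells with 3, 4 and 5. In replicate 2 it was 59.8, 60.1 and 62.9, then 72.7, 73.8 and 77.4. In both libraries the levels with 0 to 2 markers lay within a narrow band and those with 4 or 5 markers were the highest, while cells with 3 markers were few (13 and 31). Since the number of markers detected rises with depth, the cells were also reweighted to the depths of the pluripotent-like cells. The levels with 0, 1 and 2 markers were then 66.3, 66.1 and 68.2 in replicate 1 and 68.0, 65.1 and 65.3 in replicate 2, without a rise along the 3 classes in replicate 2. With 3 markers they were 69.1 in replicate 1, where such cells covered 80% of the depths, and 80.1 in replicate 2. With 4 and 5 markers they were 81.3 and 81.0 in replicate 1 and 74.3 and 76.7 in replicate 2, above the cells with 0 to 2 markers in both but, in replicate 2, below the 31 cells with 3.

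**Figure D1:**
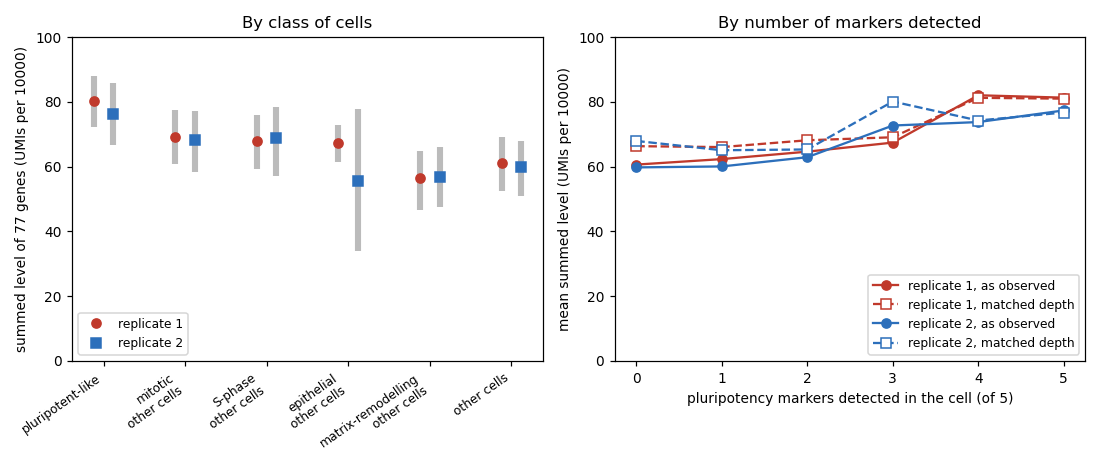
Summed level of the 77 mitochondrial ribosomal protein genes (UMIs per 10000) by class of cells, left, and by number of pluripotency markers detected, right. Circles and squares on the left are means over the cells of replicates 1 and 2, with grey bars from the 25th to the 75th percentile of cells (the other cells at the far right include the 4 gated classes before them, and the epithelial class of replicate 2 holds 5 cells); on the right, filled circles are levels as observed and open squares levels at matched depth. The pluripotent-like means, 80.3 and 76.2, lie above every other class.

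For single genes, the mean level of each class in each library was tested on the log2(level + 0.1) scale with limma, with the library as a term, over the 7131 genes whose mean over all cells reached 0.1 UMIs per 10000, and a gene is called at a Benjamini-Hochberg adjusted p under 0.05. Of the 77 members 73 could be tested. In the pluripotent-like cells 44 of these (60.3%) were called higher, against 31.3% of all genes tested, and 6 (8.22%) were called lower, against 45.9% of all genes. The remaining 23 were not called. The 44 include Mrps31, which passed the filter only through its level in the pluripotent-like cells. The median difference of the 73 members was 0.32 on the log2 scale, whereas that of all genes tested was -0.15, so that the members lay 0.47 above the median gene. These values depend on the filter, which uses the mean over all cells, most of them other cells. With no filter the median of all 17408 genes was -0.0094, and the members lay 0.33 above it. Within the libraries the members' median was 0.39 and 0.33, and 54 members were higher and 12 lower in both, while 7 differed in direction.

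**Figure D2:**
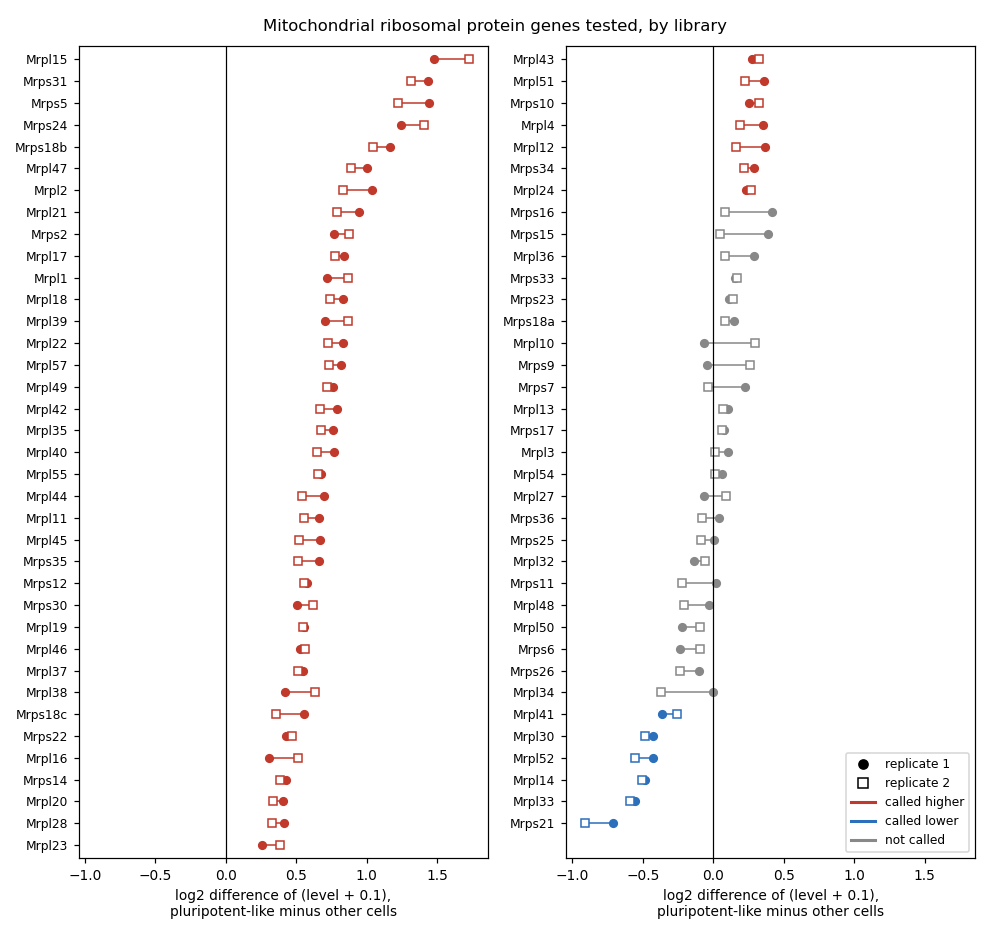
Difference of each of the 73 tested members between pluripotent-like and other cells, on the log2(level + 0.1) scale, in replicate 1 (filled circles) and replicate 2 (open squares), sorted by the mean. Members called higher (44, red), lower (6, blue) or not called (23, grey) are shown; the largest rise is Mrpl15 and the largest fall Mrps21.

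The large subunit had 48 tested members, of which 32 rose and 5 fell. Mrpl15, a large subunit protein of bacterial descent, had 2.43 and 3.02 UMIs per 10000 in the pluripotent-like cells of the 2 libraries, against 0.807 and 0.844 in other cells. Its difference of 1.60 ± 0.097 (SE, limma, adjusted p = 5.54e-07) was the largest of all members, and it corresponds to a 3.30-fold ratio of the mean levels. Mrpl2, whose bacterial counterpart lies near the peptidyl transferase centre, had 1.28 and 1.08 against 0.573 and 0.563 UMIs per 10000. Mrpl21 had 1.75 and 1.66 against 0.861 and 0.922. The differences of Mrpl2 and Mrpl21 were 0.93 ± 0.094 (limma, adjusted p = 1.46e-05) and 0.86 ± 0.092 (adjusted p = 2.00e-05). Mrpl47, the counterpart of a bacterial protein near the exit of the nascent chain, was a low gene at 0.398 and 0.390 against 0.150 and 0.165 UMIs per 10000. It rose by 0.94 ± 0.090 (limma, adjusted p = 9.68e-06), which the pseudocount makes smaller than the 2.51-fold ratio of its mean levels. Its exons overlap those of Actl6a and Ndufb5 on the opposite strand, and the use of strand in the counting was not given in the sources used here.

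Among the 24 tested small subunit members 12 rose and 1 fell. Mrps5 and Mrps24, counterparts of bacterial proteins at the mRNA entry of the small subunit, had 1.80 and 1.60 against 0.602 and 0.630 UMIs per 10000 (Mrps5) and 4.14 and 4.62 against 1.69 and 1.68 (Mrps24). Both differed by 1.33 on the log2 scale (limma, adjusted p = 1.54e-06 and 1.29e-06). Mrps24 shares exon sequence with Urgcp on the same strand, so that its count is uncertain. Mrps31, a protein that mitochondria added, rose from 0.0897 and 0.0951 to 0.413 and 0.384 UMIs per 10000. The difference was 1.37 ± 0.090 on the log2(level + 0.1) scale (limma, adjusted p = 9.20e-07), and the ratio of the mean levels was 4.31. Mrps31 lay under 0.1 in the other cells of both libraries, so it passed the filter only through the pluripotent-like cells. Its call is therefore no separate evidence of a rise. Mrps18b, which has the paralogues Mrps18a and Mrps18c, had 1.05 and 0.989 against 0.416 and 0.429 and rose by 1.10 ± 0.090 (limma, adjusted p = 3.60e-06). Of the paralogues, Mrps18c rose by 0.46 ± 0.094 (limma, adjusted p = 0.00155), whereas Mrps18a differed by 0.12 ± 0.089 (adjusted p = 0.252).

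There were 6 members that fell, and each was lower in both libraries. Mrps21, a small subunit protein of bacterial descent, had 1.05 and 0.858 UMIs per 10000 in pluripotent-like cells against 1.79 and 1.70 in other cells, a difference of -0.81 ± 0.094 (limma, adjusted p = 3.56e-05). Mrpl33, a large subunit protein of bacterial descent, had 1.77 and 1.54 against 2.65 and 2.37. It fell by 0.57 on the log2 scale (limma, adjusted p = 0.000246). Its annotated exons overlap those of Gm43809 on the same strand. The gene Mrpl14 had 1.03 and 1.01 against 1.48 and 1.47, a fall of 0.49 (limma, adjusted p = 0.000625), and its protein lies where the subunits meet. Mrpl52, added in mitochondria, had 3.02 and 2.32 against 4.09 and 3.46, and fell by 0.49 (adjusted p = 0.000792 in limma). Levels of Mrpl30 were 1.82 and 1.88 against 2.49 and 2.67 (a fall of 0.45, limma adjusted p = 0.0011). For Mrpl41, added in mitochondria, they were 0.425 and 0.393 against 0.577 and 0.488 (a fall of 0.31, limma adjusted p = 0.0104). In all 6 genes the 2 classes did not overlap, which is no separate evidence because the genes were chosen by these values. After centring on the median of all genes Mrpl41 was no longer called (-0.16, limma adjusted p = 0.121), and the other 5 were.

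**Figure D3:**
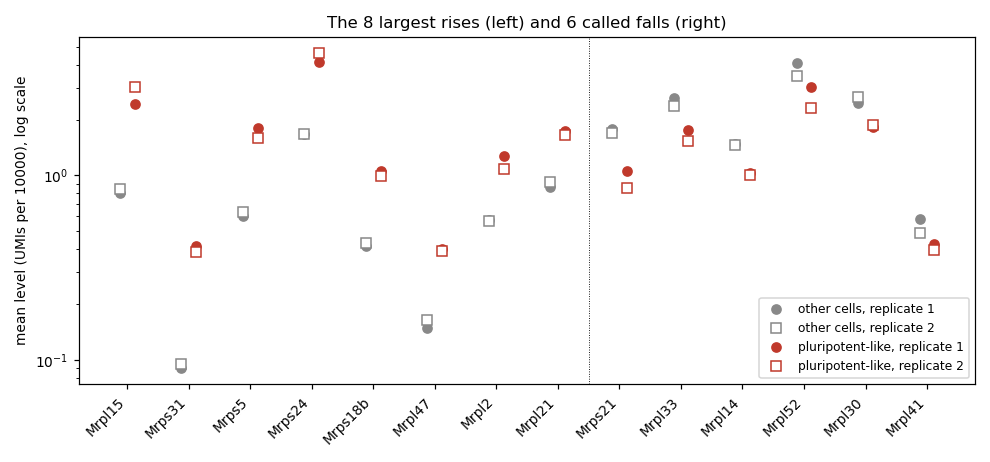
Mean level (UMIs per 10000, log axis) in other cells (grey) and pluripotent-like cells (red) of replicate 1 (filled circles) and replicate 2 (open squares), for the 8 members with the largest rise and the 6 called lower. The genes were chosen by these values, so that the gap between the classes in all 14 is no separate evidence. Levels are to be compared within a gene only.

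Split by a list of bacterial-type proteins, 25 of the 43 tested members on it were called higher and 4 lower, with a median of 0.29. Of the 29 other subunit members 19 were higher and 2 lower, with a median of 0.53. These others include Mrps18a and Mrps18b, paralogues of the bacterial-type Mrps18c, so that not all need have been added in mitochondria. The other proteins of the large subunit had 14 of 20 higher and a median of 0.54, the bacterial-type proteins of the large subunit 18 of 28 and 0.34. In the small subunit the bacterial-type group had 7 of 15 higher and a median of 0.25, and the other group 5 of 9 and 0.25. The difference between these groups was not tested. The 5 members closest to 0 were Mrpl27 (0.01), Mrps36 (-0.02), Mrpl54 (0.04), Mrps25 (-0.04) and Mrpl3 (0.06), all on the log2 scale, with standard errors of 0.088 to 0.092. Mrps36 carries the name of a ribosomal protein but is a component of the 2-oxoglutarate dehydrogenase complex. It stood at 1.29 and 1.16 UMIs per 10000 against 1.25 and 1.23, and its classes overlapped. The 4 members under the filter were Mrps27, at 0.184 and 0.132 against 0.0943 and 0.0891, Mrpl9, at 0.103 and 0.0829 against 0.0954 and 0.0762, Mrps28, at 0.0877 and 0.0431 against 0.0306 and 0.0284, and Mrpl53, whose mean over all cells was 0.00029.

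Depth and the cell cycle moved with the pluripotent-like class. The mitotic gate (at least 3 of Ccnb1, Cdc20, Plk1, Aurka and Cenpf above 0) was passed by 85.6% (137 of 160 cells, 95% exact binomial interval 79.2 to 90.7%) and 74.6% (296 of 397, 70.0 to 78.8%) of pluripotent-like cells, against 19.6% (18.2 to 21.1%) and 17.3% (16.1 to 18.6%) of other cells. The 5 mitotic genes summed to 5.66 and 5.48 UMIs per 10000 against 1.90 and 1.69. The S-phase gate (at least 3 of Ccne2, Cdc6, Clspn, Mcm10 and Dtl) was passed by 33.8% (26.5 to 41.6%) and 37.0% (32.3 to 42.0%) against 12.2% (11.0 to 13.4%) and 10.2% (9.20 to 11.2%). Deeper cells pass such gates more readily, and intervals cover counting error only.

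The comparison was therefore repeated against other cells reweighted to the same depths, and against other cells in the mitotic or S-phase gate (756 and 787 cells). At matched depth 38 members were higher and 10 lower (limma, against 29.2% and 46.7% of all genes), with a median of 0.21. Against the cycling cells 37 were higher and 12 lower (against 26.7% and 47.8% of all genes), with a median of 0.23. Of the 44 members called higher at first, 38 kept the call at matched depth, 37 kept it against cycling cells, and 37 kept it in all 3 fits. The 6 called lower kept the call in both. Mrpl15 differed by 1.44 at matched depth and by 1.47 against cycling cells, and Mrps21 by -0.82 and -0.78. Mrpl12, a stalk protein that recruits translation factors, was among those that lost the call: its difference went from 0.27 (limma, adjusted p = 0.0271) to 0.00 at matched depth (adjusted p = 0.988) and -0.15 against cycling cells (adjusted p = 0.171). Mrpl18, which binds the structural RNA of the central protuberance, kept it at matched depth (0.42, adjusted p = 0.00114 in limma) but not against cycling cells (0.12, adjusted p = 0.278).

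Next, states within the other cells were compared, each as cells with at least 3 of 5 markers against other cells with at most 1, using the same limma fit. These comparisons share most of their reference cells with the first, so their values are set side by side and not correlated. In the 579 and 608 mitotic cells the members summed to 69.1 and 68.3 UMIs per 10000, against 58.7 and 57.7 in the reference. Of 73 members 43 (58.9%) were called higher and 0 lower, where 31.9% of all genes were higher and 27.8% lower. At an unadjusted p under 0.05 a total of 46 passed in either direction, but the share of all genes passing it was not computed. The members' median was 0.19, against 0.01 for all genes. Mrpl18 rose most, from 0.906 and 0.891 to 1.89 and 1.75 UMIs per 10000, a difference of 0.94 ± 0.061 (limma, adjusted p = 1.44e-07). It was followed by Mrpl42 (0.62 ± 0.060) and Mrpl51 (0.62 ± 0.060), both large subunit proteins that mitochondria added, with adjusted p = 4.58e-06 and 4.55e-06 in limma. The mitotic cells were deeper (medians of 22107 and 21471 UMIs against 13544 and 12323). At matched depth 26 members were higher and 0 lower (against 27.3% and 25.2% of all genes), and the median was 0.10. Without a term for the library 25 members (34.2%) were higher, against 20.7% of all genes. The 9 fibroblast genes were lower in the mitotic cells than in their reference, at 18.8 and 13.1 against 37.3 and 22.0 UMIs per 10000, as were the 7 macrophage genes, at 0.0439 and 0.0385 against 0.366 and 0.779, and their part in the result was not tested.

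Of the 360 and 358 S-phase cells 183 and 179 were also among the mitotic cells, so that the 2 comparisons are not separate evidence. In the S-phase cells the summed level was 67.9 and 68.8 UMIs per 10000, against 59.5 and 58.3. Here 34 members (46.6%) were higher, against 27.7% of all genes, and 1 was lower, against 25.5%. The median was 0.16, with 0.00 for all genes. Mrpl18 rose most (1.06 ± 0.067, limma adjusted p = 1.84e-06), with 1.98 and 2.09 against 0.944 and 0.898 UMIs per 10000. Mrpl12 had 1.88 and 1.89 against 1.2 and 1.18 (0.62, limma adjusted p = 4.39e-05) and Mrpl14 had 2.04 and 2.06 against 1.35 and 1.35 (0.57, adjusted p = 7.59e-05). The single fall was Mrpl24, at 0.754 and 0.840 against 0.975 and 1.05 (-0.31 ± 0.063, limma adjusted p = 0.00267). Depth differed here too, with medians of 21313 and 20955 UMIs against 13782 and 12489. At matched depth 15 members were higher and 3 lower (against 20.5% and 17.5% of all genes), the share of members higher was then 20.5%, and the median was 0.09. Without a term for the library 15 (20.5%) were called higher, against 16.0% of all genes. The fibroblast genes stood at 27.2 and 15.2 against 34.7 and 21.2 in the reference and the macrophage genes at 0.0322 and 0.0504 against 0.349 and 0.746, and their part was not tested.

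The 6 members that fell in the pluripotent-like cells are set beside their values in the mitotic and S-phase cells. For Mrpl14 the differences were -0.49 in pluripotent-like, 0.42 in mitotic and 0.57 in S-phase cells, and for Mrpl33 they were -0.57, 0.32 and 0.29, all of them called. Mrps21 (-0.08 and -0.04 in mitotic and S-phase cells), Mrpl30 (0.01 and -0.02) and Mrpl41 (0.10 and 0.15) were called in neither. Mrpl52 differed by -0.14 and -0.05 and was not called either, but after centring on the median of all genes it was called lower in mitotic cells (-0.16, limma adjusted p = 0.0309).

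In the matrix-remodelling cells (at least 3 of Spp1, Mmp13, Mmp3, Col10a1 and Penk, 114 and 60 cells) the summed level was 56.6 and 56.7 UMIs per 10000, against 61.5 and 60.1. None of the 73 members was called higher and 4 were lower (5.48%), where 11.6% of all genes were higher and 9.49% lower. By unadjusted p under 0.05, 14 members passed in either direction, but the share of all genes passing it was not computed, so this count has no background. The median was -0.16, and that of all genes 0.03. Mrps30, a large subunit protein despite its symbol, had 0.119 and 0.238 UMIs per 10000 against 0.343 and 0.361 (-0.73 ± 0.18, limma adjusted p = 0.0159). Mrpl19 had 0.236 and 0.193 against 0.341 and 0.413 (-0.60 ± 0.17, limma adjusted p = 0.0297), and Mrpl12 had 0.830 and 0.897 against 1.37 and 1.32 (-0.58 ± 0.16, adjusted p = 0.0255). The fourth was Mrpl1, which the rule for naming genes did not select. These cells were shallower than the reference (medians of 13794 and 9956 UMIs against 15184 and 13774) and lower in the 5 mitotic genes, which summed to 1.03 and 0.680 UMIs per 10000 against 1.93 and 1.72 in the reference. The 9 fibroblast genes were higher, at 111 and 65.9 against 26.9 and 18.3, and the part of these differences in the result was not tested. Without a term for the library 1 member (1.37%) was called lower, against 4.09% of all genes, and from summed UMIs 10 (13.7%) were, against 11.0%.

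The epithelial cells (at least 3 of Epcam, Cdh1, Rab25, Cldn4 and Cldn7) were 52 in replicate 1 and 5 in replicate 2. In these cells the 5 pluripotency markers of the rule summed to 3.27 and 4.81 UMIs per 10000, against 0.433 and 0.348 in the reference. Keratin levels differed between the libraries, with Krt18 at 1.60 and 17.7 and Krt19 at 0.276 and 7.53. The part of these differences in the result was not tested. The members' summed level was 67.3 UMIs per 10000 in replicate 1, against 61.1 in the reference, and 55.5 in replicate 2, against 59.9. In replicate 2 it rests on 657 member UMIs and cells whose middle 50% ranged from 34.0 to 77.9. Of the 73 members 0 were called in limma in either direction, against 0.533% of all genes higher and 5.2% lower. An unadjusted p under 0.05 was reached by 1 member, and the share of all genes reaching it was not computed. With 2 of 5 markers as the gate 1 member (1.37%) was called higher, against 5.99% of all genes. Standard errors of single members were 0.39 to 0.49.

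**Figure D4:**
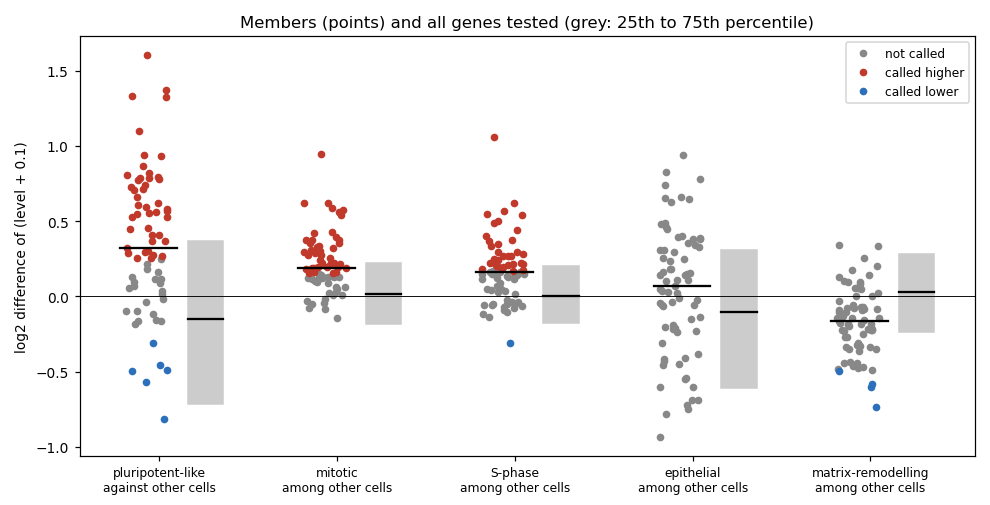
Differences of the 73 tested members on the log2(level + 0.1) scale in 5 comparisons (points: red called higher, blue called lower, grey not called), beside all 7131 genes tested (grey boxes from the 25th to the 75th percentile). Horizontal bars are medians; the members' median is 0.32 in pluripotent-like, 0.19 in mitotic, 0.16 in S-phase, 0.07 in epithelial and -0.16 in matrix-remodelling cells.

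Other genes of mitochondrial gene expression were described from lists in the comparison of pluripotent-like with other cells. In that comparison 31.3% of all genes tested were called higher and 45.9% lower. Unlike the members, the lists were not also described at matched depth or against cycling cells. The mitoribosome proteins with other symbols, which the naming rule does not catch, had 4 of 5 higher and 0 lower, with a median of 0.51. Gadd45gip1, a large subunit protein, had 1.71 and 1.47 against 0.944 and 0.896 UMIs per 10000 (0.72 ± 0.091, limma adjusted p = 6.12e-05). Dap3, a GTP-binding small subunit protein, had 0.655 and 0.853 against 0.5 and 0.529. Aurkaip1 was not called (0.14 ± 0.092, limma adjusted p = 0.179). Of the assembly and ribosomal RNA modification factors 23 of 25 were in the table and 11 were tested, of which 6 were higher and 0 lower, with a median of 0.24. Trub2, which forms pseudouridine in mitochondrial RNA, rose by 0.84 ± 0.089 (limma, adjusted p = 1.93e-05). Malsu1, which binds the large subunit through Mrpl14 during assembly, rose by 0.32 ± 0.088 (limma, adjusted p = 0.00757), whereas Mrpl14 itself fell. The GTPase Noa1 was called with unequal libraries, at 0.384 and 0.141 against 0.116 and 0.0920.

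Of the translation factors 7 of 15 were tested, 3 were higher (42.9%, against 31.3% of all genes) and 0 lower (against 45.9%), and the median was 0.10. The elongation factor Tsfm had 0.592 and 0.560 against 0.308 and 0.274 UMIs per 10000 (0.79 ± 0.089, limma adjusted p = 2.88e-05). Its partner Tufm was not called (0.09 ± 0.088, limma adjusted p = 0.376). Lrpprc rose by 0.66 ± 0.089 (limma, adjusted p = 9.91e-05) but Slirp, with which it stabilises mitochondrial messages, differed by 0.10 ± 0.088 (adjusted p = 0.313). Among the genes of mitochondrial DNA maintenance and transcription 4 of 9 were tested. Tfam, which packages the mitochondrial genome, had 0.534 and 0.484 against 0.267 and 0.258 UMIs per 10000 (0.75 ± 0.089, limma adjusted p = 4.33e-05). Ssbp1, the single-stranded DNA binding protein, rose by 0.79 (limma adjusted p = 3.99e-05), the transcription factor Tfb2m fell by 0.44 (adjusted p = 0.00174) and Polg was not called.

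All 13 mitochondrially encoded messages, which the mitoribosome translates, passed the filter. In the pluripotent-like cells 9 of them fell (69.2%, where 45.9% of all genes were lower) and 0 rose. Depth and the cell cycle also differed between these classes and were not matched here, and their part was not tested. Their median was -0.32, and that of all genes -0.15. They summed to 333 and 352 UMIs per 10000 in the pluripotent-like cells, against 419 and 416 in other cells. Both values of the pluripotent-like cells lay below both of the others. The cytochrome oxidase message mt-Co1 had 44.7 and 52.7 against 62.9 and 65.7 (-0.40 ± 0.093, limma adjusted p = 0.00293). The cytochrome b message mt-Cytb had 21.3 and 21.8 against 32.2 and 28.9 (-0.50 ± 0.094, limma adjusted p = 0.000828). The complex I message mt-Nd1 was not called, at 33.0 and 30 against 29.9 and 28.1 (0.12 ± 0.088, limma adjusted p = 0.247). The authors had removed cells with much mitochondrial RNA, and the highest share left in a cell was 8.99%, so that the highest levels of these messages are cut off in every class, and the part of this filter was not tested.

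**Figure D5:**
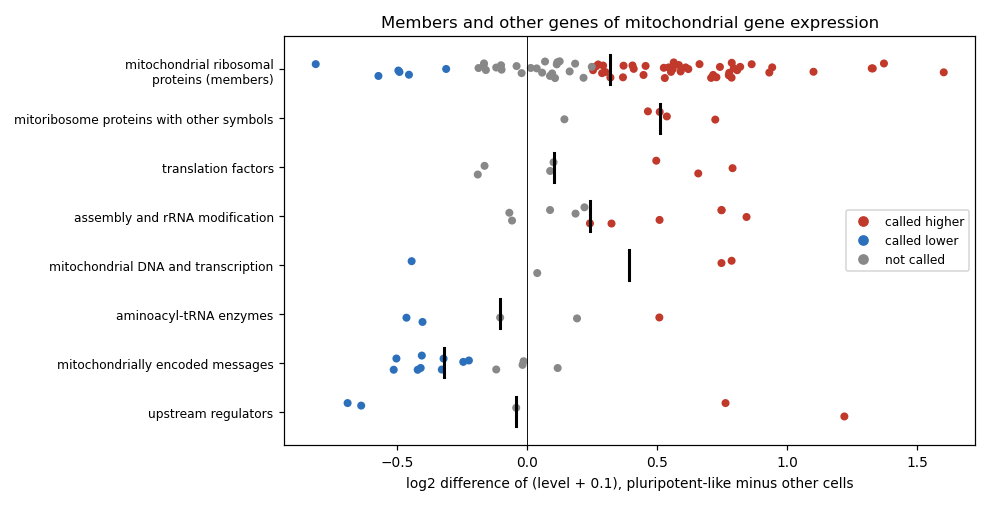
Differences between pluripotent-like and other cells on the log2(level + 0.1) scale for the 73 tested members and for 7 lists of other genes of mitochondrial gene expression (points: red called higher, blue called lower, grey not called; black bars are medians). The members' median is 0.32, that of the 13 mitochondrially encoded messages -0.32.

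Many members start head to head with another gene. For 33 of the 77 (42.9%) a protein-coding gene on the opposite strand starts within 1000 bases, against 1214 of 6847 (17.7%) placed protein-coding genes tested. The median difference of the 31 tested members with such a neighbour was 0.30 (18 higher, 3 lower), and that of the 42 without it 0.34 (26 higher, 3 lower). In 12 pairs both genes were tested, with Mrpl46 and Mrps11 counted as 1 pair. In 5 of these both were higher: Mrpl18 with the chaperonin gene Tcp1, Mrpl40 with Hira, Mrpl47 with Ndufb5, Mrpl51 with Ncapd2 and Mrps18b with Ppp1r10. In 1 pair, Mrpl30 and Mitd1, the directions were opposite: their starts lie 66 bases apart, Mrpl30 fell by 0.45, and Mitd1 rose by 0.72 ± 0.091 (limma, adjusted p = 6.6e-05) from 0.171 and 0.175 to 0.369 and 0.332 UMIs per 10000. In the other 6 at least 1 gene was not called. Mrpl49 rose by 0.74 while Fau, which encodes a cytosolic ribosomal protein and starts 59 bases away, differed by -0.02 ± 0.090 (limma, adjusted p = 0.832). Mrpl46 rose by 0.54 and its partner Mrps11 differed by -0.10 (limma, adjusted p = 0.364). Split by promoter letters, the median difference was 0.27 for the 22 tested members with the ETS-type letters and 0.37 for the 43 without, and 0.53 for the 11 with the YY1-type letters and 0.31 for the 54 without, differences that were not tested.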

How the data were processed

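The deposited table, which the authors made with Cell Ranger (version 2.1.1, mm10) and Seurat, holds, on a natural log scale, 1 plus each gene's UMIs per 10000 UMIs of its cell, for cells filtered on genes detected (1508 to 5987 in the cells deposited) and on mitochondrial RNA. Any removal of doublets was not given in the sources used here. Cells were assigned to libraries by the barcode prefix, and 0 columns stayed unassigned. Values were brought back to the linear scale and to UMIs (100% of values above 0 were whole within 0.01), and depths are sums of these.

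Cells were classed by marker genes above 0 rather than by clusters. The mean linear level of each class in each library was tested as log2(mean + 0.1) with limma (version 3.58.1, R 4.3.3), over genes with a mean of at least 0.1, with the library as a term because both classes come from the same cell suspension. A gene leaves 1 residual degree of freedom, and the moderated total was 9.05 to 14.0 over the 5 comparisons, 11.2 and 138 for pluripotent-like cells at matched depth and against cycling cells, and 7131 (1 spread for all genes) for mitotic cells at matched depth. With the library as a term, p-values rest on how far the class difference disagrees between the 2 libraries. That spread is moderated towards the spread of all genes tested. Adjusted p-values are Benjamini-Hochberg over all genes tested, at 0.05. The deposited unit is a natural log, and no count model was run on the UMIs brought back from it. Depth matching reweighted the reference to the target cells in 10 depth bins per library (5 bins for the levels by marker number). Scripts were tested on simulated data.

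Named members are the 8 largest rises, 6 largest falls and 5 smallest differences of the first comparison and the 3 largest rises and falls called in each gate. Neighbouring genes, Mrps18a, Mrps18c, Mrpl1, Mrpl46 and Mrpl49 were named after their values were seen. The members, the lists and the rule were chosen with earlier results of these data known. Figures used matplotlib (version 3.10.9).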

Additional observations from a re-analysis of the deposited data

How the results depend on the processing

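The comparison of pluripotent-like with other cells was recomputed under 12 alternatives and each gate under 10, beside leaving out either library. Genes named with a call kept direction and call in 299 of 311 recomputations, lost the call in 12 and reversed in 0. Without the replicate block (no term for the library) the pluripotent-like comparison had 41 members higher and 6 lower, against 29.0% and 43.2% of all genes. Mitotic cells had 25 higher (against 20.7% of all genes), S-phase cells 15 higher (against 16.0%) and matrix-remodelling cells 1 lower (against 4.09%). Leaving out a library left no residual, so that these fits give values but no calls.

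For pluripotent-like cells, 28 of 49 members tested were higher with a mean of at least 0.5 (57.1%, against 34.8% of all genes). With no filter (77 tested) 43 members were higher and 6 lower (55.8% and 7.79%), against 19.9% and 25.3% of all genes. At matched depth 10 were lower and against cycling cells 12, where 46.7% and 47.8% of all genes were lower. The members' median was 0.16 with a pseudocount of 1, 0.27 with a mean of at least 0.5, 0.21 at matched depth, 0.47 after centring, 0.26 with 2 markers, 0.23 against cycling cells and 0.33 to 0.39 without a replicate. The log2 ratio of the summed level was 0.23 at matched depth, 0.29 with 2 markers and 0.20 against cycling cells.

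In mitotic cells the members higher were 25 with no filter (77 tested) and 26 at matched depth, against 9.93% and 27.3% of all genes. After centring 1, Mrpl52, was lower, against 31.5% of all genes. The members' median was 0.076 with a pseudocount of 1, 0.22 with 0.01, 0.10 at matched depth, 0.17 without cells over 40000 UMIs and 0.17 after centring. In S-phase cells 11 were higher with no filter (77 tested) and 15 at matched depth, against 5.84% and 20.5% of all genes. With a mean of at least 0.5 (49 tested) 2 were lower, and at matched depth 3, against 26.2% and 17.5% of all genes. The members' median was 0.063 with a pseudocount of 1, 0.20 with 0.01, 0.20 with a mean of at least 0.5 and 0.088 at matched depth.

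In epithelial cells 1 member was higher with 2 markers (1.37%, against 5.99% of all genes). The median reversed to -0.0090 with a mean of at least 0.5 and to -0.024 at matched depth, and was 0.19 after centring and 0.042 to 0.14 without a replicate. In matrix-remodelling cells 1 member was higher with a pseudocount of 1, against 8.89% of all genes. With a pseudocount of 0.01, 0 members were lower, against 4.70% of all genes. With no filter 0 of all 17408 genes were called, so that 0 members lower says nothing about the members. From summed UMIs 10 were lower, against 11.0% of all genes. The members' median was -0.066 with a pseudocount of 1, -0.21 with 0.01 and -0.11 with 2 markers.

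Reversals among the genes nearest 0 were Mrpl27 (-0.063 to 0.092 without a replicate), Mrps36 (0.13 after centring, -0.082 to 0.040 without a replicate), Mrpl54 (-0.032 at matched depth, -0.056 against cycling cells), Mrps25 (0.11 after centring, 0.022 with 2 markers, -0.084 to 0.0032 without a replicate) and Mrpl3 (-0.0069 from summed UMIs, -0.13 at matched depth, -0.15 against cycling cells). A stricter filter tested fewer genes, and the cause of the changes under the alternatives was not tested. Only 2 libraries, the shallow low genes and the 5 epithelial cells of replicate 2 limit precision.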

Other observations

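Some listed genes that are neither members nor part of the mitoribosome were measured in the same comparison of pluripotent-like with other cells. Depth and the cell cycle were not matched for them either. Of 20 mitochondrial aminoacyl-tRNA enzymes 5 passed the filter on low levels, of which Tars2 was higher (0.51 ± 0.089 on the log2 scale, limma adjusted p = 0.000548), and Iars2 and Gatc were lower (-0.40 ± 0.096 and -0.46 ± 0.090, limma adjusted p = 0.00377 and 0.0011). The rest were not tested, so these calls do not describe the whole list. All 20 summed to 1.96 and 2.07 UMIs per 10000 in pluripotent-like cells, against 1.68 and 1.59 in other cells. Of the 80 cytosolic ribosomal protein genes tested, 22 (27.5%) were called higher and 5 (6.25%) lower, against 31.3% and 45.9% of all genes. Their median difference was 0.06, and they summed to 3916 and 4023 UMIs per 10000 against 3618 and 3947 in other cells.

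Regulators of nuclear genes for mitochondria were also listed. The coactivator Pprc1 had 0.379 and 0.303 UMIs per 10000 in pluripotent-like cells against 0.103 and 0.0747 (1.22 ± 0.088, limma adjusted p = 1.63e-06). Over all other cells together Pprc1 averaged under the filter of 0.1, so it was tested only through the pluripotent-like cells. Its call is therefore no separate evidence of a rise. The transcription factor Nrf1 had 0.391 and 0.388 against 0.2 and 0.177 (0.76 ± 0.090, limma adjusted p = 3.94e-05). The nuclear receptor Esrra was lower, at 0.0875 and 0.0942 against 0.214 and 0.202 (-0.69 ± 0.090, limma adjusted p = 7.81e-05). Yy1 was not called (-0.04 ± 0.092, limma adjusted p = 0.694). Myc was lower (-0.64 ± 0.092, limma adjusted p = 0.000159), and since the STEMCCA cassette carries Myc, transcripts of the gene and of the cassette cannot be told apart. Mycn, under the filter on low levels, stood at 0.424 and 0.438 against 0.00975 and 0.00992 UMIs per 10000.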
